A study of Mus musculus with 20 samples.

Results

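The response of quadriceps muscle to anterior cruciate ligament transection (ACLT) that was common to mice given a placebo antibody and mice given an antibody against GDF8 was measured by RNA-seq. For each of 10 pairs of limbs, 5 under each antibody, the log2(CPM + 1) of the ACLT limb minus that of the control limb was taken, and the mean of the 10 differences was tested against 0 with equal weight to each antibody. CPM is a gene's count of reads scaled to a library total of 1e+06. All 20 libraries of the series entered, and 13502 of the 17415 listed genes had at least 1 CPM in at least 5 libraries and were tested. Of these, 836 genes differed in the same direction in 10 of 10 pairs, 814 higher and 22 lower after injury.

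Mice received repeated subcutaneous injections of a monoclonal antibody specific to GDF8 (GDF8 Ab) or of a placebo antibody (PLA Ab), and both quadriceps were taken 7 days after surgery. The 4 groups of 5 libraries were the non-injured control limb and the ACLT limb under each antibody. Every mouse therefore had an antibody and an operated limb, and the control limb was the other limb of an operated mouse, not a limb of an uninjured mouse. The study treated C57BL/6J and Col1-eGFP mice between 4 and 5 months of age, of both sexes, and the labels give neither strain nor sex for a library. The paper takes these libraries from its shorter experiment, in which it counted Col1-GFP cells, and names C57BL/6J for its longer one. The labels number the limbs 1 to 5 within each group without saying that a number is a mouse. Limbs that share an antibody and a number were taken as pairs on the study's contralateral design.

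GDF8, or myostatin, is a TGF-beta family protein made by muscle fibres that restrains muscle growth. Injured muscle is entered by macrophages, which clear debris and release factors for repair, while fibro-adipogenic progenitors and fibroblasts lay down collagen and other matrix proteins. Satellite cells divide and fuse to mend or build fibres, and disturbed fibres switch on fetal contractile and denervation genes. Immediate early genes such as Fos are transcribed quickly and briefly after a stimulus.

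Depths read from the value of a single read were 15.6 to 24.2 times 1e+06 reads per library, and 3 reads corresponded to 0.124 to 0.192 CPM. This floor covers counting error only. Ckm, muscle creatine kinase, stood at 12702 CPM or more and Acta1, skeletal alpha actin, at 19468 CPM or more in every library, as the tissue label requires. The pairs were unequal in the size of their response. The standard deviation of the differences over all tested genes was 0.39, 0.65, 0.44, 0.85 and 1.08 in PLA Ab pairs 1 to 5 and 0.30 to 0.40 in the GDF8 Ab pairs. PLA Ab pairs 4 and 5 therefore stood apart, and the main counts are also given without them, as are the calls of each list described where they moved by over 1.5 times. Across genes, which are not independent replicates, GDF8 Ab pairs 4 and 5 had the lowest median correlations with the other pairs, 0.16 and 0.11. In whole muscle, fewer cells of a type and less RNA per cell cannot be told apart.

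On the CPM scale, far more genes were called higher than lower after ACLT. At a limma adjusted p under 0.05, 3249 genes were called, 3146 higher (23.3% of the tested genes) and 103 lower (0.763%), and 5229 had an unadjusted p under 0.05. The direction held in 10 of 10 pairs for 814 higher genes (6.03%) and 22 lower genes (0.163%). Both criteria were met by 781 higher genes (5.78%) and 18 lower genes (0.133%), 799 in all, of which 784 were protein coding. Another 33 higher and 4 lower genes kept their sign in every pair without being called. The median difference of the 781 higher genes was 0.91, against 0.12 over all tested genes, and 350 of them at least doubled on the log2(CPM + 1) scale, which understates the change of genes with low values. The filter favours genes that rose, since 168 of the 781 reached 1 CPM in 5 libraries only with the help of injured limbs. The same held for 4 of the 29 matricellular, 4 of the 13 chemokine and cytokine and 4 of the 21 immediate early genes tested. It also held for 3 of the 17 satellite cell and regeneration genes. In the TGF-beta, complement, antigen presentation, interferon-stimulated and neuromuscular junction lists it held for 2 genes each. Over all 13502 tested genes it held for 943.

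The balance of directions depended on the scaling. With median-of-ratios scaling of the same CPM the median gene fell by 0.15 on the log2 scale relative to the CPM result, and 2153 genes were called higher and 1484 lower, so that 59.2% of the calls were higher in place of 96.8%. Of the 781 higher genes 548 and of the 18 lower genes 17 then still met both criteria. The number called also rested on a few pairs. It was 1645 without PLA Ab pair 4, 1711, 1755 and 1652 without GDF8 Ab pair 1, 2 or 3, and 1529 without PLA Ab pairs 4 and 5 together. Without those last 2 pairs, 655 of the 781 higher genes and 5 of the 18 lower genes still met both criteria, the sign then being required in the 8 pairs left. Without GDF8 Ab pair 4 or pair 5, 1264 and 1619 genes had a single sign in the 9 pairs left, and 1401 of the latter were also called.

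**Figure D1:**
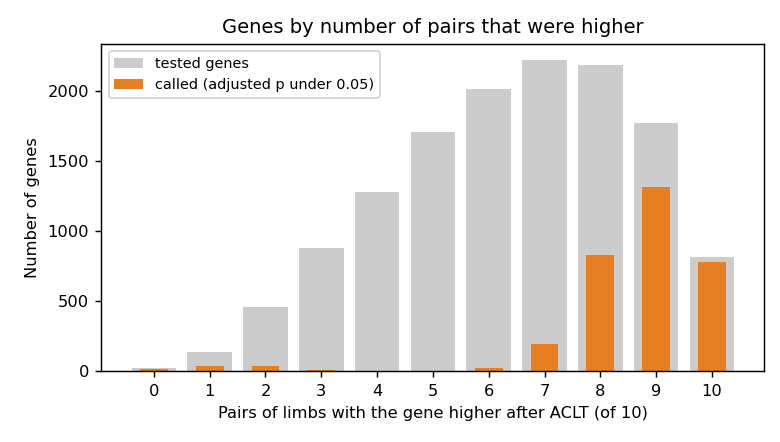
Number of tested genes (grey) and of called genes (orange) by how many of the 10 pairs were higher after ACLT. The rightmost bar holds 814 genes, 781 of them called, and the leftmost bar 22 genes, 18 of them called.

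The largest mean increase of all was that of Postn, which encodes periostin, a matricellular protein of fibroblasts. Its level in PLA Ab control libraries 1 to 5 was 3.93, 3.18, 2.08, 6.80 and 4.87 CPM, and in the PLA Ab ACLT libraries 25.9, 885, 105, 2295 and 2952 CPM. Under GDF8 Ab it was 1.33, 2.74, 6.05, 3.38 and 11 CPM in the control limbs and 52.1, 196, 169, 7.65 and 54.6 CPM in the ACLT limbs. All 10 injured limbs exceeded their own control limb, and the 2 sets of limbs did not overlap under PLA Ab but did under GDF8 Ab, where the lowest injured limb lay below the highest control limb. The mean log2 difference was 5.05 ± 0.61 (SE, limma adjusted p = 0.00105), with 6.49 under PLA Ab and 3.60 under GDF8 Ab.

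After Postn came C1qtnf3, a secreted protein of the C1q and TNF-related family, at 3.73 ± 0.57 (SE, limma adjusted p = 0.00271). Its differences were 1.59, 5.35, 3.04, 7.52 and 7.79 in PLA Ab pairs 1 to 5 and 2.55, 3.60, 3.53, 0.00 and 2.28 in GDF8 Ab pairs 1 to 5. GDF8 Ab pair 4 thus hardly moved. Cthrc1, a secreted protein of activated fibroblasts, differed by 3.25 ± 0.57 (SE, limma adjusted p = 0.00454). It was at 0.169, 0.570, 0.0463, 0.128 and 0.124 CPM in the PLA Ab control limbs and at 0.740, 27.3, 6.01, 110.0 and 148 CPM in the PLA Ab ACLT limbs, so that several control limbs lay at or under the level of 3 reads. The plot of single pairs shows that the pairs of both arms stayed on the same side of 0 for each of these genes while spreading over several log2 units.

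**Figure D2:**
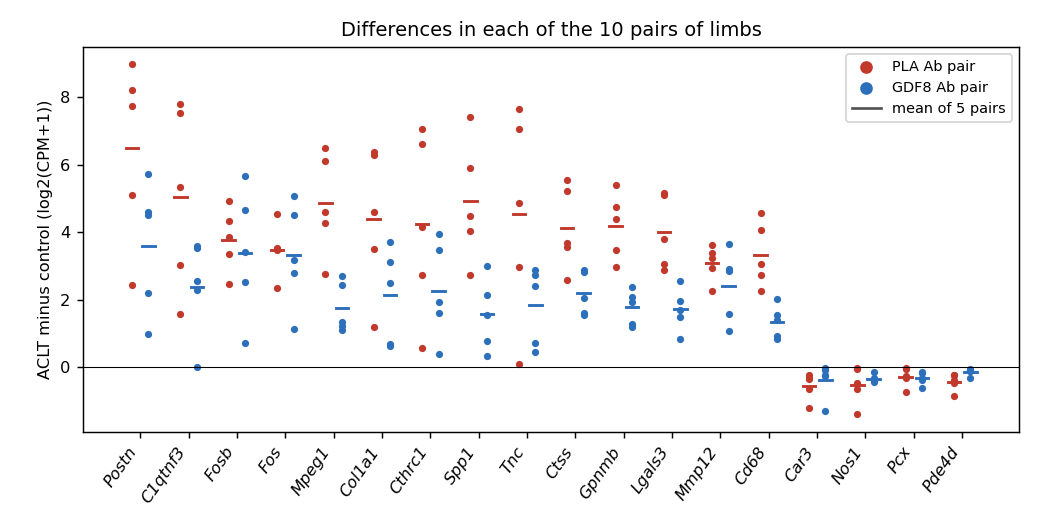
Difference between ACLT and control limb on the log2(CPM + 1) scale in each PLA Ab pair (red) and GDF8 Ab pair (blue) for 14 genes that were higher and 4 that were lower in 10 of 10 pairs; short lines are means of 5 pairs. Fos, Fosb and Mmp12 have the arms closest together among the higher genes shown, and Postn reaches furthest, with means of 6.49 and 3.60.

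Fibrillar collagens, the rope-like proteins of tendon and scar, had the largest median difference of the lists over all 10 pairs. Under GDF8 Ab macrophage markers had the larger median, at 1.26 against 1.18, and without PLA Ab pairs 4 and 5 also, at 1.74 against 1.71. Of 9 tested members 8 were called higher and 7 rose in 10 of 10 pairs, and the median difference was 2.38 over both arms, 3.56 under PLA Ab and 1.18 under GDF8 Ab. Col1a1, the alpha 1 chain of type I collagen, was at 76.8, 57.8, 30.2, 59.1 and 80.4 CPM in the PLA Ab control limbs and at 177, 1422, 357, 4693 and 6803 CPM in the PLA Ab ACLT limbs. With GDF8 Ab it was at 34.3, 46.3, 48.4, 37.0 and 104 and 199.9, 409, 653, 60.9 and 162 CPM. Every pair rose, most in PLA Ab pairs 4 and 5 and least in GDF8 Ab pairs 4 and 5, and the mean difference was 3.27 ± 0.48 (SE, limma adjusted p = 0.00220). Col3a1, the collagen of loose and healing tissue, rose by 2.78 ± 0.40 (SE, limma adjusted p = 0.00219), but its GDF8 Ab pair 4 differed by only 0.01. Col24a1 was the member that was not called (0.22 ± 0.11 SE, limma adjusted p = 0.152, higher in 8 pairs).

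Of 13 other collagens all 13 were called higher and 5 were higher in every pair, which were the 3 type VI chains Col6a1, Col6a2 and Col6a3, together with Col14a1 and Col16a1. Col6a3 differed by 0.59, 2.23, 1.97, 3.90 and 4.04 in the PLA Ab pairs and by 0.66, 1.04, 1.46, 0.13 and 0.22 in the GDF8 Ab pairs, a mean of 1.62 ± 0.29 (SE, limma adjusted p = 0.00465). The basement membrane chains Col4a1 and Col4a2 were called in the mean of both arms, with means of 0.98 under PLA Ab and -0.03 under GDF8 Ab for Col4a1 and of 0.81 under PLA Ab and -0.07 under GDF8 Ab for Col4a2, and were higher in 8 of 10 pairs each. The difference between the arms was not called for either. The call of Col4a2 was lost without most of the single pairs. Among 17 enzymes that process collagen, 16 were called higher and 10 of these in every pair. Lox, lysyl oxidase, which cross-links collagen and elastin, differed by 0.28, 3.67, 2.56, 5.41 and 5.67 in the PLA Ab pairs and by 1.20, 2.17, 2.25, 0.35 and 0.76 in the GDF8 Ab pairs. Its smallest difference was thus in PLA Ab pair 1, and its mean was 2.43 ± 0.44 (SE, limma adjusted p = 0.00506). Serpinh1, the collagen chaperone of the endoplasmic reticulum, rose by 1.55 ± 0.32 (SE, limma adjusted p = 0.00788).

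Matricellular and glycoprotein genes followed the collagens, with 28 of 29 tested members called higher, 12 of them in every pair, and a median difference of 1.57 over both arms, 2.00 under PLA Ab and 0.91 under GDF8 Ab. Tnc, tenascin C, differed by 0.11, 4.86, 2.99, 7.05 and 7.67 in the PLA Ab pairs and 2.72, 2.43, 2.89, 0.46 and 0.73 in the GDF8 Ab pairs, with a mean of 3.19 ± 0.61 (SE, limma adjusted p = 0.00617). Spp1, osteopontin, a secreted protein of macrophages and repair cells, rose by 3.24 ± 0.39 (SE, limma adjusted p = 0.00105), and Sparc, a collagen-binding protein, by 1.70 ± 0.31 (SE, limma adjusted p = 0.00485). Of 17 matrix proteases and inhibitors 16 were called higher and 11 in every pair, but 6 of the 17 passed the filter only with the help of injured limbs. Mmp2, a gelatinase of fibroblasts, rose by 1.36 ± 0.23 (SE, limma adjusted p = 0.00392), and Timp2, an inhibitor of metalloproteinases, by 0.88 ± 0.17 (SE, limma adjusted p = 0.00603). Timp3 was the exception, at -0.10 ± 0.06 (SE, limma adjusted p = 0.237) and higher in 3 pairs, and was called lower with median-of-ratios scaling (-0.26, limma adjusted p = 0.0220).

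The TGF-beta and activin pathway was less uniform. Of 27 tested members 11 were called higher, none lower, and 2 of the called genes were higher in every pair, the latter a share close to the 5.78% of all tested genes. The list had a median difference of 0.20 over both arms, 0.35 under PLA Ab and 0.04 under GDF8 Ab. With median-of-ratios scaling 7 were called higher and 3 lower, with a median of 0.03, and without PLA Ab pairs 4 and 5, 6 were called higher. Median-of-ratios scaling called 2153 of all 13502 tested genes higher and 1484 lower, and without PLA Ab pairs 4 and 5, 1509 were called higher. Tgfbr2, the type II TGF-beta receptor, rose by 0.90 ± 0.16 (SE, limma adjusted p = 0.00485). Inhba, the subunit of activin A, differed by 0.01, 0.15, 0.42, 1.47 and 2.61 in the PLA Ab pairs and 0.91, 0.55, 1.15, 0.17 and 0.59 in the GDF8 Ab pairs, a mean of 0.80 ± 0.23 (SE, limma adjusted p = 0.0263). Its call was lost without PLA Ab pair 4 and without GDF8 Ab pair 1, 2 or 3. Inhba passed the filter only with the help of injured limbs, with 2 control limbs at 1 CPM or more. Mstn, which encodes GDF8 itself, was not called and split 4 pairs higher to 6 lower (-0.20 ± 0.14 SE, limma adjusted p = 0.296).

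By smallest p, the leading genes were mostly those of macrophages. Gpnmb, a glycoprotein of activated macrophages, was at 2.79, 2.99, 1.16, 1.99 and 3.09 CPM in the PLA Ab control limbs and 28.9, 43.6, 43.9, 125 and 109 CPM in the PLA Ab ACLT limbs. In GDF8 Ab mice the levels were 2.38, 3.52, 1.74, 1.63 and 2.69 and 7.18, 16.4, 10.7, 12.7 and 7.45 CPM. No injured limb of either arm overlapped with any control limb, and the mean difference was 2.99 ± 0.21 (SE, limma adjusted p = 0.000138). Mmp12, the macrophage elastase, was at 0.127, 0.291, 0.0463, 0.128 and 0.124 CPM in PLA Ab control limbs and 7.65, 12.6, 8.92, 4.40 and 12.8 CPM in PLA Ab ACLT limbs. Under GDF8 Ab it went from 0.0421, 0.0435, 0.0916, 0.299 and 0.146 to 1.20, 12.1, 7.19, 2.89 and 7.31 CPM. Most control limbs were thus at or below the level of 3 reads and all 10 injured limbs above 1 CPM, with a mean difference of 2.75 ± 0.23 (SE, limma adjusted p = 0.000210). Ctss, a lysosomal protease of antigen-presenting cells, rose by 3.16 ± 0.26 (SE, limma adjusted p = 0.000210), Lgals3, galectin 3, by 2.86 ± 0.24 (SE, limma adjusted p = 0.000210), and Cd68, a lysosomal membrane protein of macrophages, by 2.34 ± 0.21 (SE, limma adjusted p = 0.000353). Fos, the remaining gene of the 6 with the smallest p, is described with the immediate early genes. Mpeg1, perforin-2 of macrophages, was among the 10 largest mean increases. It was at 2.16, 1.52, 0.555, 1.35 and 1.28 CPM in the PLA Ab control limbs and 20.4, 60.2, 29.4, 162 and 206 CPM in the PLA Ab ACLT limbs. Under GDF8 Ab it was at 3.25, 1.65, 3.34, 2.44 and 1.90 and 9.89, 16.2, 22.4, 6.43 and 5.85 CPM. No injured limb overlapped with any control limb, and the mean difference was 3.31 ± 0.32 (SE, limma adjusted p = 0.000503).

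Since Fos and Fosb encode subunits of AP-1, which binds TGANTCA, the promoters of the 6 genes with the smallest p were searched for these letters on both strands. The sequences are RefSeq's for build GRCm38.p6, from 250 bases before to 50 bases after each gene's start, and 7.81% of all 32851 promoters of this length hold the motif. It was found for 3 of the 6 genes, and these promoters are shown for that reason, 5′ to 3′ with the motif in capitals. They are Gpnmb at chr6:49036268-49036567 on the plus strand, Mmp12 at chr9:7347124-7347423 on the plus strand for the start of its 2 that has a match, and Cd68 at chr11:69666121-69666420 on the minus strand. The windows of Ctss, Lgals3 and Fos do not hold these letters. Of the 781 genes called higher in every pair, 597 had a promoter in the table, and 7.71% of these genes held the motif. Counted by gene in the same way, 6.13% of the 10171 tested genes with a promoter held it. Too few of the 781 were matched for the 7.71% to stand for them.
Gpnmb: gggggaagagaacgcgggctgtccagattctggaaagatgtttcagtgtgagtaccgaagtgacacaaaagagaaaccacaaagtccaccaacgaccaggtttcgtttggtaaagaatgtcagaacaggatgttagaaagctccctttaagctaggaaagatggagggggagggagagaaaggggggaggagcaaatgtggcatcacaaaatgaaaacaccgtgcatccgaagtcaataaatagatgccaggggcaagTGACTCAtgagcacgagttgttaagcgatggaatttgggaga
Mmp12: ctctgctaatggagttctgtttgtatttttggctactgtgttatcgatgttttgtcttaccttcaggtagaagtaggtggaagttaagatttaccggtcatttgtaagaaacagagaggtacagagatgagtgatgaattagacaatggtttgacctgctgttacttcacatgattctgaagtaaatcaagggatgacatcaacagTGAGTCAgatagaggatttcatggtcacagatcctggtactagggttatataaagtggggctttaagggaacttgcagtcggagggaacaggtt
Cd68: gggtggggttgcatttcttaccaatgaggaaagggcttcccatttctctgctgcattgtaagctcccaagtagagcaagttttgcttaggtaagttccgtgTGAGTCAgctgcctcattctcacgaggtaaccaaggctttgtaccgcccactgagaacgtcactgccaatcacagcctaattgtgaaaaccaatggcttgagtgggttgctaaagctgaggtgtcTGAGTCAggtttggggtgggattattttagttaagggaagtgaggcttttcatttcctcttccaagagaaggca
The match begins 8 bases after the start in Gpnmb, 44 bases before it in Mmp12, and 149 and 24 bases before it in Cd68. A match of letters is a description and does not show binding.

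Of the 12 macrophage markers 12 were called higher and 11 in every pair, Cd163, a scavenger receptor of resident macrophages, being the exception with 9. Their median differences were 1.38, 2.42, 2.81, 3.98 and 4.28 in PLA Ab pairs 1 to 5 and 1.37, 1.49, 2.06, 0.49 and 0.77 in GDF8 Ab pairs 1 to 5. Their summed level ran from 42.7 to 122 CPM in PLA Ab control limbs, from 331 to 2386 CPM in PLA Ab ACLT limbs, from 62.2 to 106 CPM in GDF8 Ab control limbs and from 97.2 to 379 CPM in GDF8 Ab ACLT limbs. The groups did not overlap under PLA Ab and overlapped narrowly under GDF8 Ab. These markers moved with the matrix, lysosomal and antigen presentation lists, and their part in those results was not tested. The lists are not all separate, since Ctss is also in the lysosomal list and C1qa, C1qb and C1qc are also in the complement list.

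Among 22 genes of lysosomes and phagocytosis 20 were called higher and 15 in every pair, the highest number in any list. Ctsl and Psap, a cathepsin and the precursor of the saposins, were its most abundant such members and moved little, by 0.51 ± 0.13 (SE, limma adjusted p = 0.0209) and 0.32 ± 0.07 (SE, limma adjusted p = 0.00757). Both lost their call under some alternatives, Ctsl without PLA Ab pair 4 or GDF8 Ab pair 2 or 3, and Psap with median-of-ratios scaling. Of 17 complement genes 13 were called higher and 8 in every pair. C1qb, a chain of C1q, rose by 2.44 ± 0.27 (SE, limma adjusted p = 0.00105) and C3, the central component, by 0.81 ± 0.13 (SE, limma adjusted p = 0.00311). Of 13 tested chemokine and cytokine genes 9 were called higher, 7 in every pair, among them Ccl6 (1.87 ± 0.28 SE, limma adjusted p = 0.00263) and Ccl9 (1.81 ± 0.27 SE, limma adjusted p = 0.00229), chemokines of myeloid cells in the mouse.

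All 15 antigen presentation genes were called higher. The 7 that were higher in every pair were all of the class II pathway (H2-Aa, H2-Ab1, H2-Eb1, H2-DMa, H2-DMb1, Cd74 and Ciita), while the class I genes were higher in 8 or 9 pairs. Cd74, the invariant chain, differed by 1.16, 1.52, 1.81, 3.64 and 3.41 in the PLA Ab pairs and by 1.07, 1.51, 1.45, 0.61 and 0.61 in the GDF8 Ab pairs, a mean of 1.68 ± 0.23 (SE, limma adjusted p = 0.00185), and H2-Ab1, a class II beta chain, rose by 1.84 ± 0.22 (SE, limma adjusted p = 0.00105). Of 17 interferon-stimulated genes 14 were called higher but only 3 kept the sign in every pair, Irf7 (1.12 ± 0.21 SE, limma adjusted p = 0.00598), Ifit2 (0.74 ± 0.13 SE, limma adjusted p = 0.00500) and Oas1a (1.18 ± 0.20 SE, limma adjusted p = 0.00392). Without PLA Ab pairs 4 and 5, 6 of the 17 were called, and with median-of-ratios scaling 9. Of all 13502 tested genes 1509 and 2153 were then called higher, smaller shares than in this list. The median of this list was below 0 in GDF8 Ab pairs 4 and 5, at -0.11 and -0.18.

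Most immediate early genes were called higher in the mean of both arms. None was called within GDF8 Ab, but neither was any other tested gene in this fit. Fos shared the smallest limma adjusted p of all tested genes there with Mmp12, at 0.0692. Fos was at 7.95, 5.99, 2.13, 3.14 and 3.75 CPM in the PLA Ab control limbs and 98.2, 34.4, 35.4, 45.7 and 109 CPM in the PLA Ab ACLT limbs. Under GDF8 Ab it was at 3.55, 3.74, 2.15, 1.75 and 9.62 and 102, 158, 20.9, 24.0 and 22.6 CPM. No control limb reached the lowest injured limb, and the mean difference was 3.41 ± 0.32 (SE, limma adjusted p = 0.000503), with 3.48 under PLA Ab and 3.34 under GDF8 Ab. The difference between the arms was -0.14, with a 95% interval from -1.54 to 1.27, wide enough that equal responses cannot be claimed. Fosb, its close relative, differed by 4.92, 2.47, 3.85, 3.35 and 4.33 in the PLA Ab pairs and 4.66, 5.66, 2.54, 3.41 and 0.73 in the GDF8 Ab pairs, a mean of 3.59 ± 0.40 (SE, limma adjusted p = 0.00105). GDF8 Ab pair 5 was the lowest of the 10 for both genes.

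In all, 18 of 21 tested immediate early genes were called higher and 9 rose in every pair (Fos, Fosb, Junb, Jund, Egr1, Ier2, Ier3, Myc and Dusp1). Egr1, a zinc finger factor, differed by 1.90 ± 0.22 (SE, limma adjusted p = 0.00105), Junb by 1.93 ± 0.27 (SE, limma adjusted p = 0.00201) and Jund by 0.79 ± 0.10 (SE, limma adjusted p = 0.00145), both partners of Fos in AP-1. Dusp1, a phosphatase that switches off stress kinases, was one of few genes with the larger mean under GDF8 Ab, at 0.69, 0.13, 0.48, 0.29 and 0.40 in the PLA Ab pairs and 1.01, 1.19, 0.47, 0.41 and 0.27 in the GDF8 Ab pairs (0.54 ± 0.09 SE, limma adjusted p = 0.00390). The nuclear receptor Nr4a3 was not called (0.29 ± 0.16 SE, limma adjusted p = 0.185, higher in 8 pairs), nor was Nr4a1 (0.18 ± 0.07 SE, limma adjusted p = 0.0986). The GDF8 Ab mean as a share of the PLA Ab mean had a median of 89.9% over the 9 genes (35.8% to 168%), against 36.4% over all 781 higher genes. These 9 were selected for their sign in every pair. Over all 21 tested members the median difference was 1.06 under PLA Ab and 0.65 under GDF8 Ab, and the median was -0.03 in GDF8 Ab pair 5.

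Genes of satellite cells and regeneration were called higher in 13 of 17 cases, but the sign held in every pair for 4, Mymk, Mymx, Myh8 and Ncam1. Of the 17, 3 passed the filter only with the help of injured limbs. Mymk, which drives the fusion of myoblasts, rose by 2.54 ± 0.37 (SE, limma adjusted p = 0.00237), with 4.19 under PLA Ab and 0.88 under GDF8 Ab, and Mymx, its partner, by 1.53 ± 0.30 (SE, limma adjusted p = 0.00656). Myh8, the perinatal myosin heavy chain, differed by 0.97, 5.01, 0.85, 3.27 and 3.76 in the PLA Ab pairs and 0.33, 1.06, 1.23, 0.35 and 0.57 in the GDF8 Ab pairs, a mean of 1.74 ± 0.35 (SE, limma adjusted p = 0.00709). Here PLA Ab pair 2 rose most, not pairs 4 and 5. Ncam1, a cell adhesion molecule that fibres express when young or denervated, rose by 1.56 ± 0.32 (SE, limma adjusted p = 0.00839). Myh3, the embryonic myosin, had a larger mean of 2.83 ± 0.39 (SE, limma adjusted p = 0.00193) but was higher in 9 of 10 pairs, and Pax7, the marker of satellite cells, was higher in 8 (0.68 ± 0.19 SE, limma adjusted p = 0.0268) and lost its call without PLA Ab pair 2, 4 or 5 or GDF8 Ab pair 2, 3 or 5.

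At the neuromuscular junction, 10 of 19 tested genes were called higher. Chrnb1, the beta subunit of the acetylcholine receptor, differed by 0.78, 0.82, 0.08, 0.97 and 1.10 in the PLA Ab pairs and by 0.38, 0.93, 0.31, 0.20 and 0.19 in the GDF8 Ab pairs, with a mean of 0.57 ± 0.10 (SE, limma adjusted p = 0.00454). The fetal gamma subunit Chrng, which the adult epsilon subunit replaces, had a larger mean difference and was higher in 9 pairs (2.14 ± 0.31 SE, limma adjusted p = 0.00219), and the adult subunit Chrne was not called (0.06 ± 0.12 SE, limma adjusted p = 0.764). With median-of-ratios scaling 10 genes of this list were called higher and 1 lower.

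Of 18 tested cell cycle genes 17 were called higher, with 7 higher in every pair. The count is no support by itself, since 8 of the 18 passed the filter only with the help of injured limbs and 4 of the 22 listed genes did not pass. Top2a, a topoisomerase of dividing cells, was at 0.0423, 0.380, 0.139, 0.128 and 0.330 CPM in the PLA Ab control limbs and 3.90, 15.1, 6.84, 32.9 and 64.9 CPM in the PLA Ab ACLT limbs. Under GDF8 Ab it was at 0.334, 0.174, 0.641, 0.428 and 0.146 and 1.67, 1.34, 1.91, 0.466 and 0.755 CPM, below 2 CPM in every limb. The mean difference was 2.26 ± 0.28 (SE, limma adjusted p = 0.00128), with 3.82 under PLA Ab and 0.69 under GDF8 Ab. Mcm6, part of the replication helicase, rose by 1.07 ± 0.22 (SE, limma adjusted p = 0.00789). Over the 7 genes the GDF8 Ab mean was a median of 13.4% of the PLA Ab mean (11.1% to 22.5%), against 36.4% over all 781 higher genes. Over all 18 tested members the median difference was 1.78 under PLA Ab and 0.27 under GDF8 Ab.

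All 25 genes of the cytoplasmic actin cytoskeleton and thymosins were called higher, 10 in every pair, led by Lgals3, Lcp1 (2.23 ± 0.25 SE, limma adjusted p = 0.00105), the actin bundler of white blood cells, and Tmsb10 (2.15 ± 0.33 SE, limma adjusted p = 0.00263), a thymosin that binds actin monomers. Actb, cytoplasmic beta actin, differed by 0.50, 0.73, 0.74, 1.73 and 2.62 in the PLA Ab pairs and by 0.47, 0.61, 0.40, 0.16 and 0.11 in the GDF8 Ab pairs, a mean of 0.81 ± 0.17 (SE, limma adjusted p = 0.00910). Lgals1, galectin 1, rose by 0.84 ± 0.19 (SE, limma adjusted p = 0.0127). Of 19 endoplasmic reticulum genes 10 were called higher, 3 of them in every pair, including the disulfide isomerases Pdia3 (1.01 ± 0.24 SE, limma adjusted p = 0.0135) and Pdia6 (0.54 ± 0.16 SE, limma adjusted p = 0.0350). Pdia6 lost its call without PLA Ab pair 4 and without any 1 of the 5 GDF8 Ab pairs.

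Cytosolic ribosomal protein genes showed small differences that depended on the scaling and on the pairs. Of 56 tested members 35 were called higher and 11 in every pair, with a median difference of 0.26 over both arms, 0.38 under PLA Ab and 0.15 under GDF8 Ab. Rplp0, of the ribosomal stalk, was at 558, 697, 469.6, 569 and 604 CPM in the PLA Ab control limbs and 623, 701, 516, 822 and 979.8 CPM in the PLA Ab ACLT limbs. Its differences were 0.13, 0.10, 0.20, 0.01 and 0.11 in the GDF8 Ab pairs, and its mean 0.21 ± 0.07 (SE, limma adjusted p = 0.0416), while Rpsa, of the small subunit, differed by 0.28 ± 0.09 (SE, limma adjusted p = 0.0492). Both lost their call without PLA Ab pair 4 or 5 and without any 1 GDF8 Ab pair. Without PLA Ab pairs 4 and 5, 7 of the 56 were called and the median was 0.12. Of all 13502 tested genes 1509 were then called higher, a similar share, with a median of 0.07. With median-of-ratios scaling 5 of the 56 were called, none was higher in every pair, and the median was 0.10. Of all tested genes 2153 were then called higher, a larger share, with a median of -0.02.

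**Figure D3:**
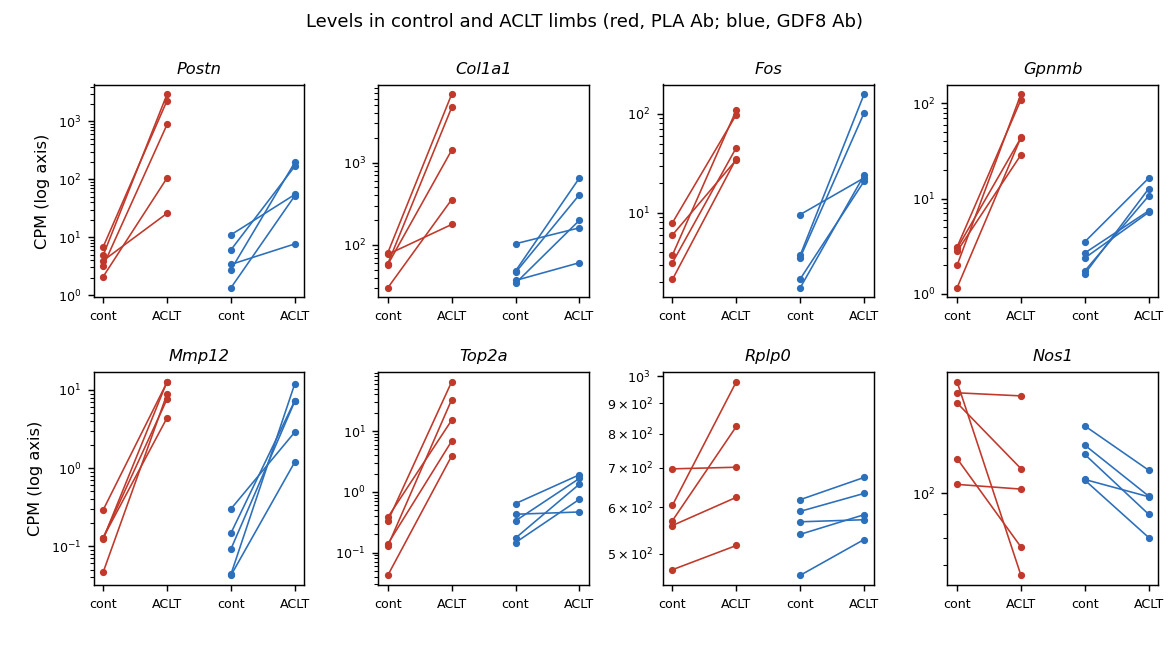
Levels of 8 genes in CPM on log axes, with a line joining the control and ACLT limbs of each pair, red for PLA Ab and blue for GDF8 Ab. Each of the 10 lines rises for 7 genes and falls for Nos1, and Mmp12 and Fos reach similar heights in the arms while Postn and Col1a1 reach higher under PLA Ab.

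On the CPM scale falls were few and small. With median-of-ratios scaling 228 genes were lower in every pair and 212 of them were called. On the CPM scale the 18 called genes that were lower in every pair had a median difference of -0.23, from -0.45 for Car3 to -0.14. Car3, the carbonic anhydrase of slow fibres and fat, differed by -1.19, -0.23, -0.28, -0.34 and -0.64 in the PLA Ab pairs and -0.23, -0.24, -0.08, -1.29 and -0.02 in the GDF8 Ab pairs, a mean of -0.45 ± 0.13 (SE, limma adjusted p = 0.0263). Nos1, the neuronal nitric oxide synthase that sits under the fibre membrane, was at 119, 104, 165, 157 and 174 CPM in the PLA Ab control limbs and 76.5, 102, 163, 113 and 66.4 CPM in the PLA Ab ACLT limbs. With GDF8 Ab it was at 139.9, 107, 121, 127 and 107 and 112, 80.1, 90.0, 98.6 and 98.2 CPM. All 10 pairs fell while control and injured limbs overlapped in both arms, and the mean was -0.42 ± 0.11 (SE, limma adjusted p = 0.0210). Car3 lost its call without GDF8 Ab pair 1 or 2, and Nos1 without GDF8 Ab pair 2 or 3.

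Pcx, pyruvate carboxylase, fell in every pair, by 0.31, 0.25, 0.02, 0.04 and 0.71 on the log2 scale in the PLA Ab pairs and by 0.36, 0.13, 0.32, 0.17 and 0.61 in the GDF8 Ab pairs (-0.29 ± 0.07 SE, limma adjusted p = 0.0146). Pde4d, a phosphodiesterase that breaks down cyclic AMP, differed by -0.28 ± 0.06 (SE, limma adjusted p = 0.0113) and Dusp28, a phosphatase, by -0.24 ± 0.06 (SE, limma adjusted p = 0.0192). Abcb4, a phospholipid transporter known from bile formation in liver, differed by -0.25 ± 0.08 (SE, limma adjusted p = 0.0422), Asb2, a ubiquitin ligase subunit of muscle, by -0.24 ± 0.08 (SE, limma adjusted p = 0.0440), and Fan1, a nuclease of DNA crosslink repair, by -0.23 ± 0.08 (SE, limma adjusted p = 0.0462). Slc25a12, the mitochondrial carrier for aspartate and glutamate, differed by -0.19 ± 0.06 (SE, limma adjusted p = 0.0488) and Extl1, a glycosyltransferase of heparan sulfate synthesis, by -0.19 ± 0.05 (SE, limma adjusted p = 0.0271). Pcx, Pde4d and Dusp28 were the steadiest, since leaving out 1 pair ended a call only for Dusp28, without GDF8 Ab pair 2 (limma adjusted p = 0.0548). Abcb4, Asb2, Fan1, Slc25a12 and Extl1 lost theirs without PLA Ab pair 4 or 5 and without several of the GDF8 Ab pairs.

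Metabolic and contractile lists gave almost no shared calls. None of 20 tricarboxylic acid cycle, 43 nuclear respiratory chain, 25 fatty acid, 21 glycolysis, 28 proteasome and 13 slow fibre genes was called. Over all tested genes 23.3% were called higher and 0.763% lower. The lower share is so small that lists of this size can hold no lower call at that rate. Their median differences were -0.14, -0.11, -0.20, -0.12, 0.05 and -0.58 in that order, against 0.12 over all tested genes. The slow fibre list ranged from -3.99 in PLA Ab pair 1 to 2.38 in GDF8 Ab pair 3, with 3 pairs above 0, so its pairs did not share a direction. Of 22 genes of branched-chain amino acid breakdown 2 were called lower, a larger share than the 0.763% of all tested genes. Pccb, a subunit of propionyl-CoA carboxylase, was lower in every pair (-0.15 ± 0.04 SE, limma adjusted p = 0.0327). With median-of-ratios scaling 10 of the 20 tricarboxylic acid cycle genes, 14 of the 43 respiratory chain genes, 7 of the 25 fatty acid genes and 15 of the 22 branched-chain genes were called lower, as were 5 of the 21 glycolysis and 5 of the 28 proteasome genes, whose medians became -0.29 and -0.11. That scaling called 1484 of all 13502 tested genes lower, and their median became -0.02.

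Of 17 fast fibre genes the kinase gene Mylk2 was called lower (-0.30 ± 0.10 SE, limma adjusted p = 0.0451), and of 18 genes of excitation-contraction coupling Mcu, the mitochondrial calcium uniporter, was called higher (0.22 ± 0.07 SE, limma adjusted p = 0.0354). Homer2, a scaffold protein, was not called in the mean of both arms and was lower in 7 pairs (-0.45 ± 0.20 SE, limma adjusted p = 0.116). Its mean was -0.82 under PLA Ab, called within that arm (limma adjusted p = 0.0394), and -0.07 under GDF8 Ab. The difference between the arms was not called for Homer2. With median-of-ratios scaling Homer2 was called lower in the mean of both arms (-0.61). The 17 atrophy genes gave Ctsl as the sole call higher and Bnip3, a mitophagy receptor, as the sole call lower (-0.21 ± 0.07 SE, limma adjusted p = 0.0395). The muscle ubiquitin ligases Trim63 (0.06 ± 0.06 SE, limma adjusted p = 0.464) and Fbxo32 (-0.12 ± 0.08 SE, limma adjusted p = 0.312) were each higher in 5 pairs and lower in 5, and with median-of-ratios scaling Trim63 turned to -0.10 and Fbxo32 was called lower at -0.28. Among 16 clock genes Npas2 was called higher (0.60 ± 0.16 SE, limma adjusted p = 0.0239) and Hlf lower (-0.32 ± 0.10 SE, limma adjusted p = 0.0364), and of 17 heat shock genes Hspb1 (0.32 ± 0.07 SE, limma adjusted p = 0.00893) and Dnajb1 (0.56 ± 0.15 SE, limma adjusted p = 0.0219) were called higher. Calls this small were not steady, since Mylk2, Mcu, Bnip3 and Hlf each lost theirs without any 1 of PLA Ab pairs 2 and 4 and GDF8 Ab pairs 2 and 3. Without PLA Ab pairs 4 and 5 no fast fibre, coupling or clock gene was called, and no atrophy or branched-chain gene was called lower, while 1 heat shock gene was called higher. With median-of-ratios scaling 6 of the 18 coupling, 5 of the 17 atrophy and 6 of the 16 clock genes were called lower. Over all 13502 tested genes that scaling called 1484 lower. On the CPM scale 23.3% of all tested genes were called higher and 0.763% lower. Without PLA Ab pairs 4 and 5 the calls over all tested genes were 1509 higher and 20 lower.

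**Figure D4:**
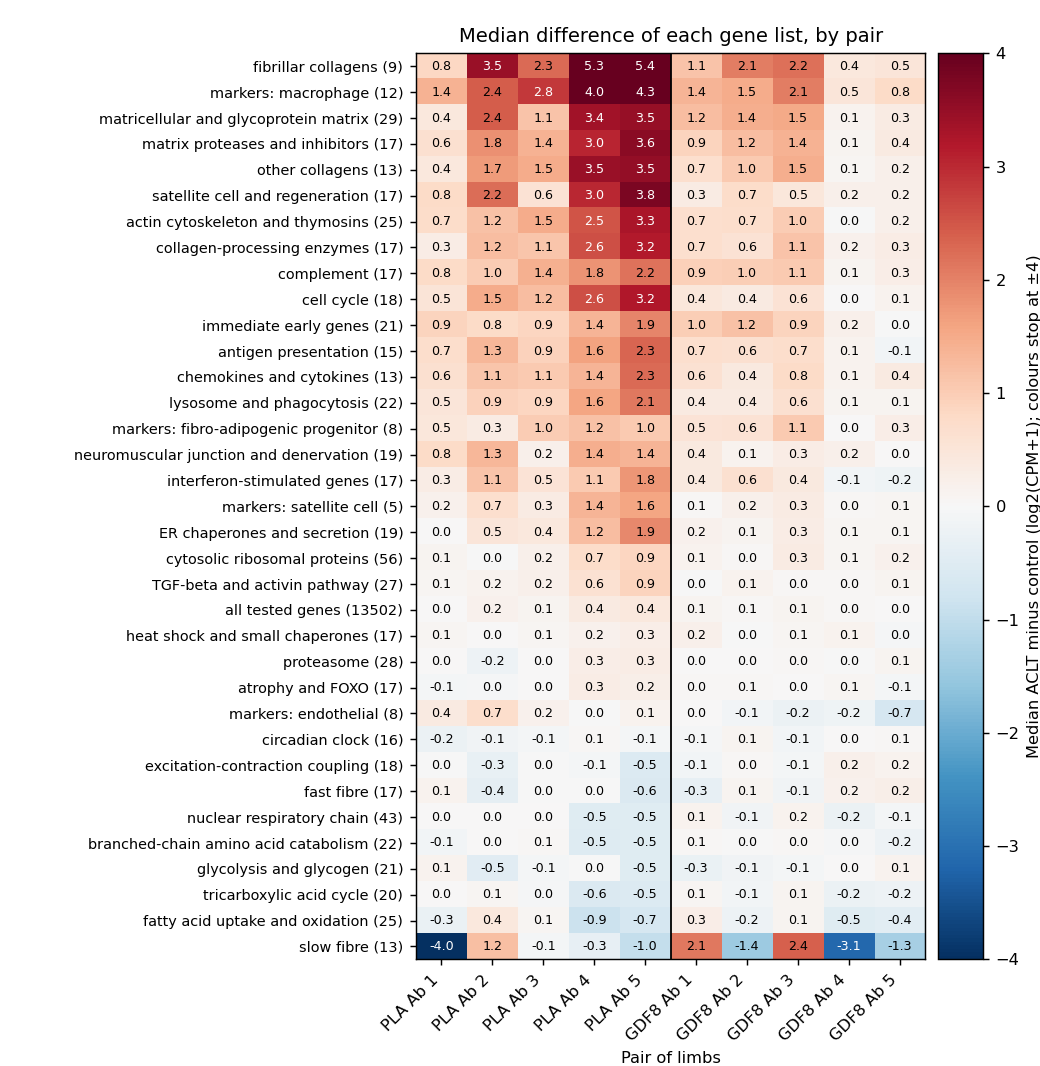
Median difference between ACLT and control limb on the log2(CPM + 1) scale for each gene list (rows, number of tested genes in brackets) in each of the 10 pairs (columns, PLA Ab left of the line). Fibrillar collagens and macrophage markers lead, at 0.42 or more in all 10 pairs, while the slow fibre list changes sign from pair to pair.

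Markers of other cells did not move as one. All 8 markers of fibro-adipogenic progenitors were called higher, 3 in every pair, with a median difference of 0.63 over both arms, 0.73 under PLA Ab and 0.43 under GDF8 Ab, and 4 of 5 satellite cell markers were called higher, none in every pair. None of 8 endothelial, 6 adipocyte, 5 erythroid and 4 mast cell markers was called. The mean of both arms hides medians of opposite sign under PLA Ab and GDF8 Ab. These were 0.23 and -0.24 for endothelial, 0.46 and -0.44 for adipocyte and 0.17 and -0.04 for mast cell markers. Over all tested genes the medians were 0.19 under PLA Ab and 0.05 under GDF8 Ab. The endothelial and mast cell values under PLA Ab were thus near that of all genes. The difference between the arms was not tested for these lists. Pairs also spread within an arm, from -1.56 to 3.00 under PLA Ab for the adipocyte median. Without PLA Ab pairs 4 and 5, 1 of the satellite cell markers was called, and 2 were with median-of-ratios scaling. Of 6 tendon markers 4 were called higher, none in every pair, and none was called without PLA Ab pairs 4 and 5. Of all 13502 tested genes 1509 were called higher without those pairs and 2153 with median-of-ratios scaling. Their summed level rose from a median of 129.7 to 404 CPM under PLA Ab and from 77.2 to 244 CPM under GDF8 Ab, while the groups overlapped in both arms. Their part in the matrix results was not tested. Of 8 neutrophil and 8 lymphocyte markers 1 each reached the filter. The 5 listed neutrophil markers were all under 1 CPM in every control limb, and their sum was at most 14.2 CPM in an injured limb.

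The size of the response was also compared between the arms. Within PLA Ab alone, in the same fit, 4343 genes were called higher (32.2%) and 315 lower (2.33%), while within GDF8 Ab 0 were called (0%), with 572 at an unadjusted p under 0.05 and a smallest limma adjusted p of 0.0692. This fit used a single spread per gene for both arms, although the PLA Ab pairs were the more unequal. A gene therefore had the same SE in each arm, and these counts do not compare the arms on their own spreads. With array weights, which give noisy libraries less weight, 237 genes were called within GDF8 Ab. The 4658 calls within PLA Ab became 2441 without pair 4, 2541 without pair 5 and 987 without both. Fitted on their own, each arm with its own spread, the GDF8 Ab pairs gave 2 calls, Ctss and Gpnmb, and the PLA Ab pairs 1503. An unadjusted limma p under 0.05 was then reached by 1847 genes under GDF8 Ab and 4518 under PLA Ab. Of the 4343 genes called higher under PLA Ab, 88.6% had a positive mean under GDF8 Ab, against 69.5% of all tested genes, and 22.5% were higher in all 5 GDF8 Ab pairs, against 11.3%. Of the 315 called lower under PLA Ab, 62.5% had a negative mean under GDF8 Ab, against 30.5% of all genes. These shares are descriptions. The 2 arms share no limb, but the calls under PLA Ab used the single spread per gene of both arms. They were therefore not independent of the GDF8 Ab pairs.

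For 768 of the 781 higher genes the PLA Ab mean was the larger, and for 13 the GDF8 Ab mean, among them Dusp1, Dlk1, an imprinted gene of immature tissue, and Col11a2. The median was 1.35 under PLA Ab and 0.45 under GDF8 Ab, and 87 of the 781 genes at least doubled under GDF8 Ab. The test of the difference between the arms called 0 genes (0%), with 2884 at an unadjusted p under 0.05 and a smallest limma adjusted p of 0.169. That count rested on PLA Ab pair 1, without which 1738 genes were called, 1709 of them with the smaller value under GDF8 Ab and 341 of them among the 799. The 4 called genes with the smallest interaction p were Abcg1, a cholesterol exporter, Gpnmb, Msln, mesothelin, and Top2a. For Gpnmb the GDF8 Ab minus PLA Ab difference was -2.42, with a 95% interval from -3.34 to -1.49, although its levels rose in all 5 pairs of each arm.

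Abcg1 differed by 1.88, 2.00, 1.65, 2.44 and 3.10 in the PLA Ab pairs and by 0.82, 0.44, 0.81, -0.02 and -0.25 in the GDF8 Ab pairs, so that it was called in the mean (1.29 ± 0.16 SE, limma adjusted p = 0.00105) while 2 of the GDF8 Ab pairs were below 0. Acta2, smooth muscle actin, a gene of vessels and myofibroblasts, showed the same split, at 1.00, 2.60, 0.89, 2.7 and 4.41 in the PLA Ab pairs and 0.25, 0.59, 0.11, -0.22 and -0.86 in the GDF8 Ab pairs (1.15 ± 0.29 SE, limma adjusted p = 0.0173). Both are called shared genes by the mean alone, without the sign in 10 of 10 pairs.

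**Figure D5:**
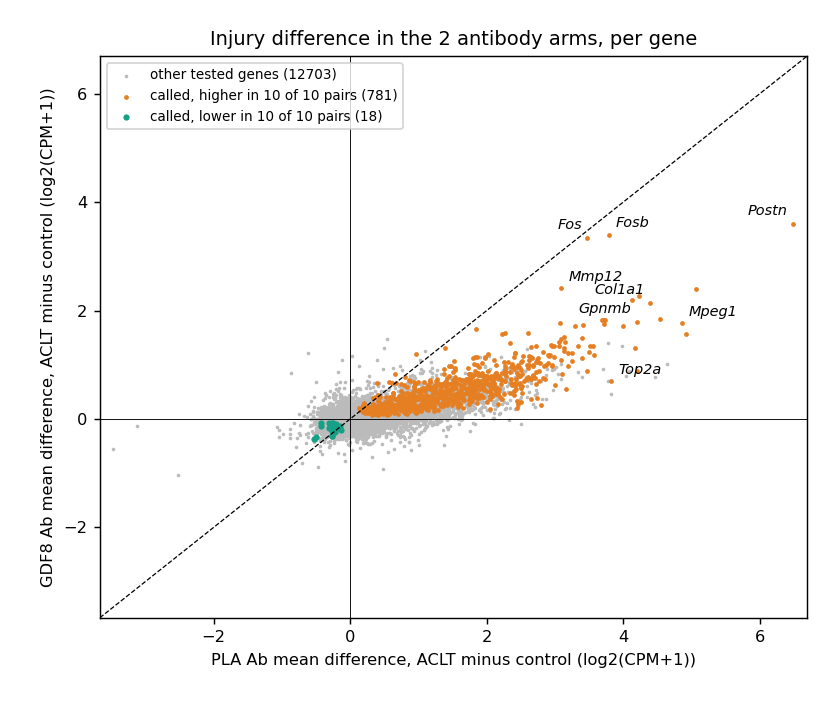
Mean difference of each tested gene under PLA Ab (horizontal) and GDF8 Ab (vertical) on the log2(CPM + 1) scale; the dashed line marks equal means, orange the 781 higher and green the 18 lower genes that were called and kept their sign in 10 of 10 pairs. Most orange points lie below the line, and Fos, Fosb and Mmp12 lie nearest to it among the labelled genes.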

How the data were processed

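RNA-seq of mouse quadriceps was analysed from a deposited table of CPM. The submitters' processing notes name STAR 2.7.3a and Partek as the tools of the authors, and the builds mm10 and mm39 without saying which was used for alignment, so no positions from the table are given. The CPM added to 1e+06 in each library, and dividing by the value of a single read gave whole numbers, to a tolerance of 0.02, for 73.7% to 78.0% of the values. Reads were therefore not reconstructed, and count-based tests were not used.

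Values entered limma 3.58.1 (R 4.3.3) as log2(CPM + 1), for genes reaching 1 CPM in at least 5 libraries. The fit had a mean-variance trend, the pair of limbs as a fixed block and an injury term for each antibody. The contrasts were the mean of the 2 injury terms, each term by itself, and their difference. Genes were called where the p adjusted by Benjamini-Hochberg over all tested genes was under 0.05, and intervals are 95%. The study used 5 mice per group without pooling, and the labels do not tie a library to a mouse. The fit was checked on simulated data in which both arms had the same injury effect and noise was independent between genes. Arms that respond unequally were not simulated. Other pseudocounts, low-value filters, scalings, fits and left-out pairs were tried.

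The pairing rests on the study's contralateral design. As a check, deviations of same-numbered limbs from their group means correlated at 0.03 to 0.46 under PLA Ab and at 0.09 to 0.52 under GDF8 Ab, with 2 of 10 pairs below 0.1.

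The gene lists, tests and members were chosen with earlier results of these data known. Genes other than predicted models were named by rule: the 10 higher and 10 lower with the largest mean among those called with 1 sign in 10 of 10 pairs, the 6 of these with the smallest p, the 8 higher and 4 lower changed most in both arms, and up to 2 per list by mean CPM, together with 8 genes the study names and the 4 called genes with the smallest interaction p. Other list members were named after their values were seen.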

Additional observations from a re-analysis of the deposited data

Results flagged for a closer look

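In 4 of the 186 sets of 5 pairs examined for the named genes, a single pair lay far from the other 4 by Dixon's criterion, which chance meets in about 1 of 20 sets. Car3 differed by -1.29 in GDF8 Ab pair 4, against -0.24 to -0.02 in the other GDF8 Ab pairs. Chrnb1 differed by 0.93 in GDF8 Ab pair 2, against 0.19 to 0.38 in the others. Pde4d differed by -0.31 in GDF8 Ab pair 2, against -0.11 to -0.04. Bnip3 differed by 0.23 in GDF8 Ab pair 1, against -0.16 to -0.06 in the others, and was lower in every other pair of both arms.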

How the results depend on the processing

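For 93 named genes 1934 values were recomputed under the alternatives, and 1689 kept direction and call, 236 lost the call, 5 gained one and 4 changed sign without being called, all for Trim63 and Chrne. No called gene among them changed sign under these alternatives. Raising the filter to 10 CPM gave 1156 called genes, 370 with 1 sign in every pair, 312 with both and 2207 within PLA Ab. Without the arm term 1505 genes were called. Array weights gave 2199 calls within PLA Ab and 237 within GDF8 Ab, and a pseudocount of 0.1 gave 2 within GDF8 Ab. Leaving out 1 pair gave 1645 to 4772 called genes, 843 to 1619 with 1 sign, 634 to 1401 with both, 2441 to 5848 within PLA Ab, 0 to 2 within GDF8 Ab, and 0 to 1738 for the difference between the arms. Without PLA Ab pairs 4 and 5, chosen after seeing the data, there were 1529 calls, 987 within PLA Ab and 8 within GDF8 Ab. Each arm fitted alone, also chosen after seeing the data, gave 1503 calls for PLA Ab and 2 for GDF8 Ab. The cause of these changes was not tested.

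With no replicate block, so that the pairing was not used, 2348 genes were called, 705 of them with 1 sign in every pair and 703 of these among the 799, and 3 were called within GDF8 Ab.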
